A study of Mus musculus with 8 samples.

Results

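The disease-associated microglia genes are a named set of 9 genes, Cst7, Itgax, Trem2, Tyrobp, Lpl, Axl, Csf1, Spp1 and Cd9, whose probes were taken by gene symbol with no threshold on a measured value, although the set was named with earlier results of these data known. The arrays carried 12 probes for them, out of 39429 probes in all, and the 9 genes were 9 of the 19751 genes that could be named. The study set young mice aged 3 months (3M) against mice aged 29 months (29M), near the end of their life span, to ask which hippocampal transcripts differ with age. Both groups were untreated wild type C57BL/6J mice kept in the home cage, and the whole hippocampus was dissected by hand. Each group had 4 samples, each labelled with Cy3 and measured on its own 1-colour microarray, on which the brightness of a spot reports the abundance of 1 transcript. Nothing in the labels says whether the 4 samples of a group were separate animals, so p-values measure the spread between these samples only.

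Microglia are the resident macrophages of the brain. In the healthy brain they carry a set of homeostatic markers, such as the purine receptor P2ry12 and the membrane protein Tmem119, and around amyloid deposits, damaged myelin or dying neurons a part of them switches on another set of genes, from which the name disease-associated microglia derives. TREM2 is a surface receptor for lipids and lipoproteins on microglia, and it signals through TYROBP (also called DAP12), an adaptor with an activation motif inside the cell that recruits the kinase SYK. In mouse disease models the full switch depends on Trem2, and the later genes of the set code for proteins of phagocytosis, lipid handling and lysosomes. The values below come from whole tissue, in which more microglia and more RNA per microglial cell cannot be told apart.

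The arrays had between 76.2% and 85.0% of their spots well above background, no spot was saturated, and precision is limited by there being 4 arrays in each group. Replicate 1 of 3M had the lowest share of spots above background, and in the scanner output it alone carried a mark asking for evaluation. Replicate 4 of 29M had the lowest share of its group, 78.9%. As a check of the tissue, all 7 markers of hippocampal neurons were well above background on all 8 arrays, and so were all 18 homeostatic microglia markers. Levels are given on the normalized log2 scale, where a difference of 1 is a factor of 2, and levels of different probes are not comparable. A probe was called when its change passed an adjusted p under 0.1 and a log2 change of at least 0.5, or 1.414-fold, in a fit over all 39408 probes tested.

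Of the 9 genes, 6 were called higher in 29M and 0 were called lower. Cst7 and Itgax rose most, Spp1 less, and Tyrobp, Trem2 and Csf1 by less than 2-fold, whereas Axl, Cd9 and Lpl did not pass the test. Over all 19742 genes tested the share called higher was 1.57%, and the share called lower was 0.709%. By probe, 8 of the 12 were called higher, against 1.24% of all probes tested. All 12 probes were well above background on all 8 arrays, so no member was lost or kept by a filter on brightness. In the same 6 genes, and in the same 8 probes, every 29M array lay above every 3M array, which was the case in 6.32% of all genes and 5.51% of all probes. The change was positive in 8 of the 9 genes, with a median log2 change of 0.65 over the members and of 0.01 over all genes.

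**Figure D1:**
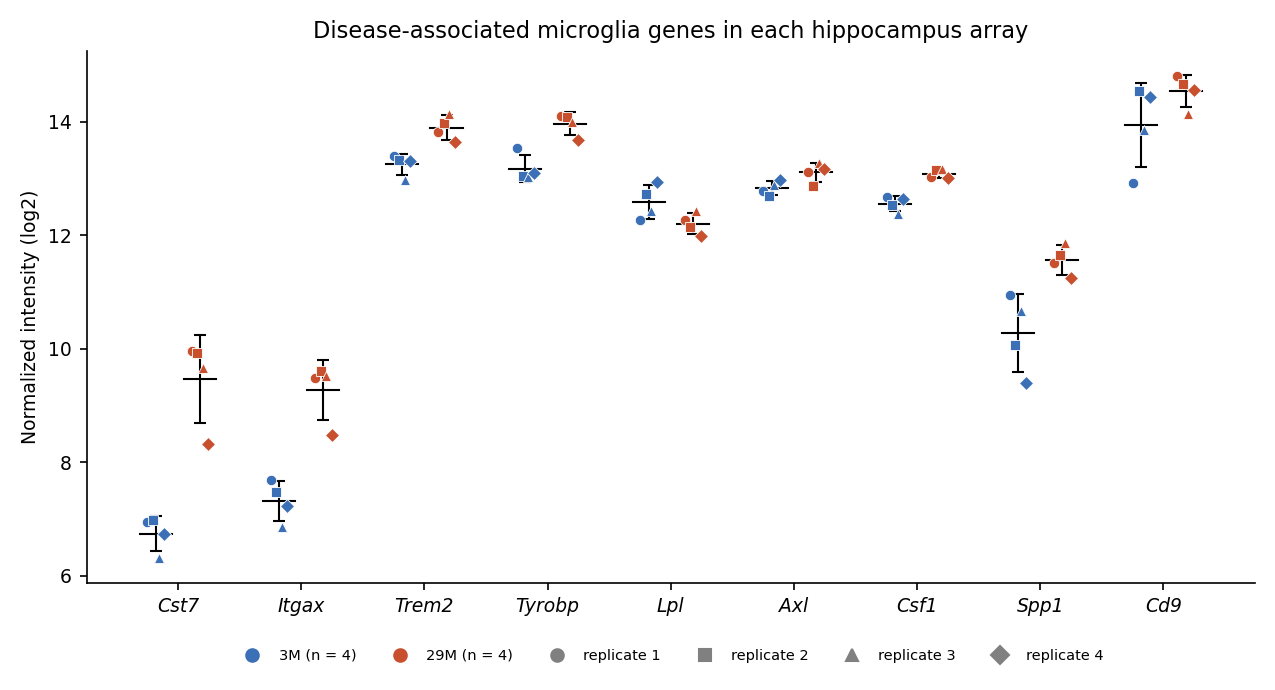
Normalized intensity (log2, vertical axis) of the 9 genes on each of the 8 arrays, 1 probe per gene, with 3M in blue and 29M in red; the shape of a point is the replicate number, and the black line and bars are the mean and SD of 4 arrays. The 29M points lie apart from the 3M points in Cst7, Itgax, Trem2, Tyrobp, Csf1 and Spp1 and overlap them in Lpl, Axl and Cd9, and heights are not comparable between genes.

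RefSeq promoter windows (assembly GRCm38.p6) were at hand for 7 of the 9 genes, not for Lpl and Tyrobp, and ran from 250 bases before to 50 bases after the start of the transcript. Among 5 short motifs searched on both strands, the palindromic letters TGANTCA occurred in 3 of the 7, in Cst7, Itgax and Trem2. This loose form of the AP-1 motif, with any middle base (N), occurs in 7.93% of the 27025 promoter windows of all genes. The stretch around each match is shown, from 120 bases before to 20 bases after the start on the plus strand. These are the promoters of the genes with the largest rises and of the receptor. Capitals mark the match to TGANTCA.
Cst7, chr2:150570295-150570434: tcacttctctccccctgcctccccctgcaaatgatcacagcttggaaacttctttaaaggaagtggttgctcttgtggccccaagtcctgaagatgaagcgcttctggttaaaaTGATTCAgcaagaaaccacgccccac
Itgax, chr7:128129430-128129569: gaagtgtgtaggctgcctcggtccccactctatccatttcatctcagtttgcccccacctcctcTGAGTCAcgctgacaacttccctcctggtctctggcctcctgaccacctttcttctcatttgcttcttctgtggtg
Trem2, chr17:48346281-48346420: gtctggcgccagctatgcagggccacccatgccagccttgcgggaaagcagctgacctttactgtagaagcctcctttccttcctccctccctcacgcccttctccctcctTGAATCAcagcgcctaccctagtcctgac
The matches begin at -6 in Cst7, -56 in Itgax and -9 in Trem2, counted from the start. Their middle base, which the search left free, differs, T, G and A in that order. The PU.1 core GAGGAA, the binding letters of a myeloid factor, was present in Trem2, Axl and Spp1 and in 28.3% of all promoters. An interferon response motif was present in Spp1 and in 3.49% of all promoters. The STAT letters TTCNNNGAA (8.47% of all promoters) and the MITF/TFE letters TCACGTG (3.84%) were in none of the 7 windows. No 2 of these matches overlapped in a member. GC content of the 7 windows ran from 45.3% to 61.3%, and the median over all promoters was 52.7%. A match of letters is a description of the window and not evidence of binding.

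Trem2, Tyrobp, Itgax, Axl and Cd9 code for proteins of the cell surface, and of these Trem2 and Tyrobp are the receptor and its adaptor. Trem2 was measured at 13.40, 13.32, 12.98 and 13.30 in replicates 1 to 4 of 3M and at 13.82, 13.98, 14.14 and 13.64 in those of 29M. The 4 aged arrays were all above the young ones, with a gap of 0.24 between the highest young and the lowest aged array. The log2 change was 0.65 (SE 0.13, 95% confidence interval 0.35 to 0.94), a 1.56-fold increase with an adjusted p of 0.0496 (limma). Tyrobp was at 13.53, 13.05, 13.02 and 13.09 in 3M and at 14.10, 14.09, 14.00 and 13.68 in 29M. Replicate 1 was the high array of the young group, and it stayed 0.15 below the lowest aged array. Tyrobp rose by 0.80 on the log2 scale (SE 0.14, interval 0.48 to 1.11), or 1.74-fold, with an adjusted p of 0.0301. The intervals of receptor and adaptor overlap, and whether their changes differed was not tested.

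Itgax codes for CD11c, an integrin alpha chain found on dendritic cells and on activated microglia, where it pairs with the beta chain ITGB2. Its levels were 7.68, 7.47, 6.86 and 7.23 in 3M and 9.49, 9.60, 9.52 and 8.48 in 29M. Replicates 1, 2 and 3 of 29M lay close together, and replicate 4 was below them, yet 0.79 above the highest young array. Before normalization the spot read 214, 192, 131 and 155 scanner units in 3M and 729, 846, 724.5 and 347 in 29M, over a local background of 24 to 37.5. The log2 change was 1.96 (SE 0.26, interval 1.37 to 2.55), a 3.89-fold increase with an adjusted p of 0.0102, and it ranked 15 among all probes tested when these were ordered from the largest rise to the largest fall.

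Axl is a receptor tyrosine kinase that takes part in the uptake of apoptotic cells through the bridging ligand GAS6. It was at 12.77, 12.69, 12.88 and 12.97 in 3M and at 13.12, 12.87, 13.27 and 13.17 in 29M. Replicate 2 of 29M fell within the young range, and the other aged arrays lay above it. The log2 change of 0.28 (SE 0.11, interval 0.04 to 0.52) did not pass the test, with an adjusted p of 0.228. Cd9, a tetraspanin that organizes other membrane proteins and is also made by oligodendrocytes and endothelial cells, was at 12.92, 14.54, 13.85 and 14.43 in 3M and at 14.80, 14.66, 14.14 and 14.56 in 29M. The young arrays alone spanned more than the difference between the groups, mostly through the low value of replicate 1. The log2 change was 0.61 (SE 0.32, interval -0.12 to 1.33), with an adjusted p of 0.383, and it was 0.27 without replicate 1 of 3M. Its interval runs from a small decrease to an increase larger than the estimate for Tyrobp.

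Cst7, Csf1, Spp1 and Lpl code for secreted proteins or proteins of the lysosome. Cst7 codes for cystatin F, an inhibitor of cysteine proteases such as cathepsin C inside the endosomes and lysosomes of immune cells. It was measured at 6.95, 6.97, 6.30 and 6.73 in 3M and at 9.95, 9.93, 9.65 and 8.32 in 29M. The groups were 1.35 apart at their nearest arrays, the widest gap of the set, and replicate 4 was again the low array of 29M. Its spot read 132, 140, 92 and 113 scanner units in 3M and 1002, 1058, 793 and 312 in 29M, over a local background of 19.5 to 35.5. Cst7 rose by 2.72 on the log2 scale (SE 0.34, interval 1.96 to 3.49), a 6.61-fold increase with an adjusted p of 0.00722, and it ranked 4 among the 39408 probes ordered from the largest rise to the largest fall.

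Csf1, the ligand of the receptor CSF1R on which microglia depend for survival, had 3 probes. The brightest, with 10 spots per array, was at 12.67, 12.54, 12.38 and 12.63 in 3M and at 13.02, 13.15, 13.16 and 13.01 in 29M. Both groups were tight, and they did not overlap. Its 10 spots differed among themselves with a coefficient of variation of 8.15% to 13.2% per array, a technical spread that the other members, with 1 spot each, cannot show. The log2 change was 0.53 (SE 0.09, interval 0.33 to 0.73), or 1.44-fold, with an adjusted p of 0.0264, just past the threshold for size. The other two probes rose by 0.72 (SE 0.12, adjusted p = 0.0219) and 0.62 (SE 0.13, adjusted p = 0.0549) on the same scale, also with separate groups.

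Spp1 codes for osteopontin, a secreted glycoprotein that binds integrins and CD44. It was at 10.95, 10.06, 10.67 and 9.40 in 3M and at 11.51, 11.65, 11.86 and 11.24 in 29M. Its young arrays were spread more widely (SD 0.69) than the aged ones (SD 0.26), and the nearest arrays of the groups were 0.29 apart. Spp1 rose by 1.29 (SE 0.30, interval 0.62 to 1.97), a 2.45-fold increase, with the highest adjusted p of the called members, 0.0735. Lpl, the lipase that releases fatty acids from lipoproteins, was the only member with a negative estimate. Its brighter probe was at 12.26, 12.72, 12.42 and 12.93 in 3M and at 12.27, 12.14, 12.43 and 11.98 in 29M. The groups overlapped, and the log2 change of -0.38 (SE 0.16, interval -0.73 to -0.03) had an adjusted p of 0.263. The second Lpl probe gave -0.07 (SE 0.16, adjusted p = 0.875), with replicate 1 of 3M at 11.49 and the other 7 arrays between 10.69 and 11.03. Lpl is also made by neurons, and whole tissue does not assign its signal to a cell type.

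**Figure D2:**
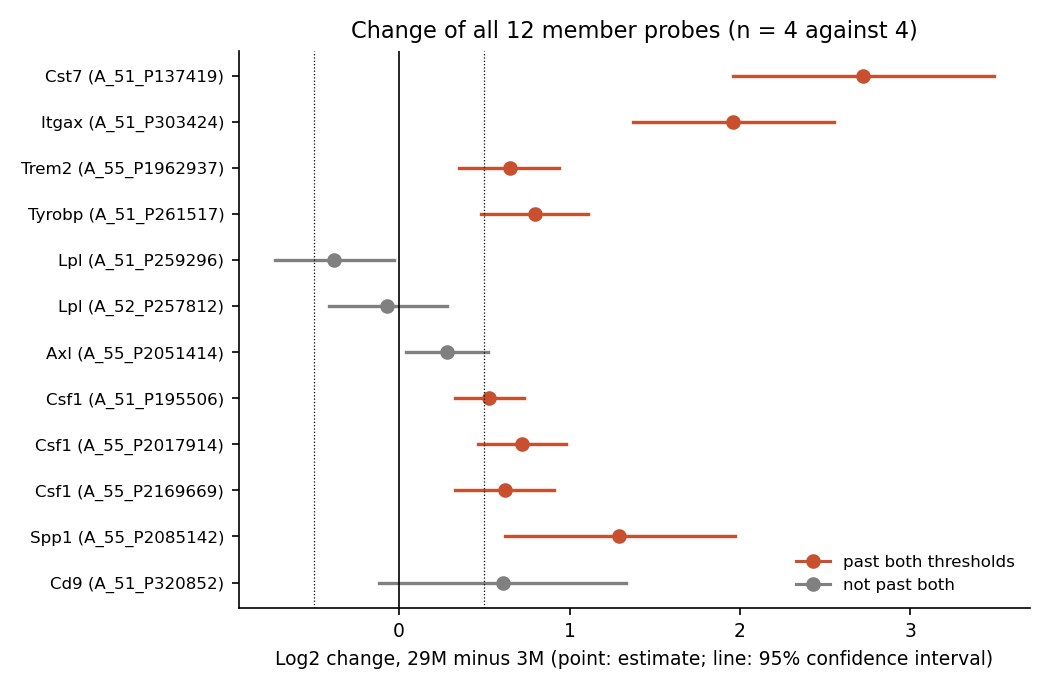
Log2 change from 3M to 29M of all 12 probes (horizontal axis; point: estimate, line: 95% confidence interval, 4 arrays in each group); dotted lines mark a change of 0.5 in either direction. The 8 probes in red passed both thresholds, from Csf1 at 0.53 to Cst7 at 2.72, and the probes of Lpl, Axl and Cd9 in grey did not.

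The 8 arrays lay on 3 slides, each of which held both groups, so the change can be read within each slide. On slide 1 the young array was replicate 1 and the aged arrays were replicates 3 and 4, on slide 2 both were replicate 2, and on slide 3 the young arrays were replicates 3 and 4 and the aged array was replicate 1. Cst7 was higher in 29M by 2.03, 2.96 and 3.44 (log2) on slides 1, 2 and 3. Itgax differed by 1.32, 2.13 and 2.44. Both were thus higher in the aged mice on every slide, least so on slide 1.

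For Tyrobp the within-slide differences were 0.31, 1.04 and 1.04, and for Spp1 they were 0.60, 1.59 and 1.47. Trem2 differed by 0.49, 0.66 and 0.68, and the brightest probe of Csf1 by 0.41, 0.61 and 0.51. Axl, which was not called, was also higher on each slide, by 0.45, 0.18 and 0.20. Cd9 differed by 1.43 on slide 1, which holds its low young array, and by 0.11 and 0.66 on slides 2 and 3. The brighter Lpl probe differed by -0.06, -0.58 and -0.40, and the second one by -0.58, 0.15 and 0.11, so its probes disagreed in direction on slides 2 and 3. With slide as a fixed block in the model, Cst7 (adjusted p = 0.0286), Itgax (0.0405), Tyrobp (0.091) and Csf1 (0.0767) passed the thresholds, and Trem2 (0.115) and Spp1 (0.154) did not.

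**Figure D3:**
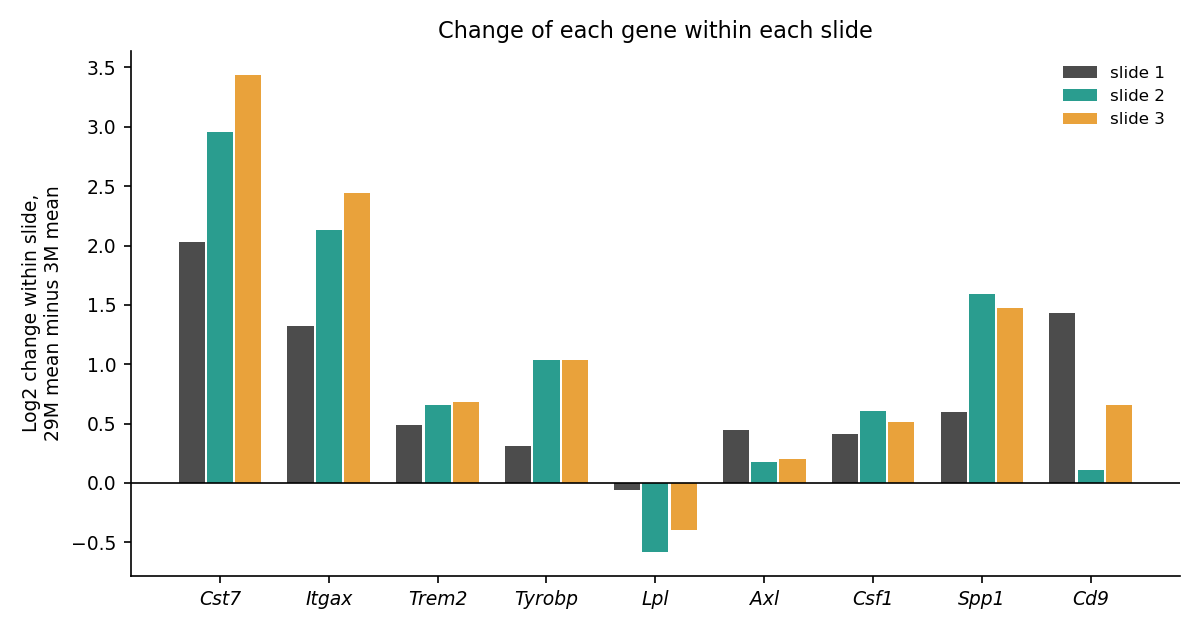
Difference between the mean of the 29M arrays and the mean of the 3M arrays (log2, vertical axis) within slides 1, 2 and 3 for the brightest probe of each of the 9 genes; bars start at 0. All genes but Lpl are above 0 on each of the 3 slides, and Lpl is below 0 on each.

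Within the groups the members did not vary as 1 block. After the group means were subtracted, the 36 pairs of members correlated over the 8 arrays with a median r of 0.22, from -0.80 for Spp1 with Cd9 to 0.96 for Cst7 with Itgax. Trem2 correlated with Csf1 at 0.88, with Itgax at 0.85 and with Tyrobp at 0.63. The points of each correlation share arrays, slides and the normalization. Replicate 4 of 29M was the lowest aged array for 7 of the 9 genes and the highest for 0. Replicate 3 of 29M was the highest for 5. Among the young arrays, replicate 1 was the highest for 5 genes and replicate 3 the lowest for 5.

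The count of called genes depended on single arrays. It was 3 of 9 when replicate 2 or 3 of 3M or replicate 1 of 29M was left out, and 6 when it was replicate 1 of 3M, the array marked for evaluation. Without replicate 4 of 29M, the low array, it was 5. The number called higher over all genes moved as well, so the drop was not limited to the members. It was 310 with every array kept, and 170, 197 and 162 in the fits that gave 3 members, in the order listed. Leaving out the marked array gave 533, and leaving out the low array gave 254. Cst7 and Itgax were called each time an array was left out, and Spp1 lost its call without replicates 2 and 3 of 3M and without any one of the aged arrays. Trem2 lost its call without replicates 2 and 3 of 3M and replicates 1 and 2 of 29M. Tyrobp lost it without replicate 2 of 3M and replicate 1 of 29M, and Csf1 lost it without replicate 3 of 3M.

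Other genes of the same microglial state were looked up as a list of 36, of which 34 had a named probe (Clec7a and Cd68 had none). Of these, 9 were called higher and 0 lower, and the median log2 change was 0.26. The 9 included the inhibitory receptor Lilrb4a (1.76, SE 0.18, adjusted p = 0.00366), the chemokine Ccl4 (1.47, SE 0.25), lysozyme Lyz2 (1.43, SE 0.26) and the galectin-binding protein Lgals3bp (1.30, SE 0.21). They also held the glycoprotein Gpnmb (1.13, SE 0.14), the actin-capping protein Capg (0.95, SE 0.09), galectin-3, Lgals3 (0.81, SE 0.21), the class I antigen H2-D1 (0.78, SE 0.20, groups overlapping) and cathepsin Z, Ctsz (0.51, SE 0.13). The abundant lipid carrier Apoe gave 0.15 (SE 0.09, adjusted p = 0.411), the cathepsins Ctsb and Ctsd gave 0.05 (SE 0.09) and 0.27 (SE 0.10), and Cd63, B2m and Igf1 gave 0.14, 0.18 and 0.15; none of these was called. The chemokine Ccl3, whose young arrays were widely spread (SD 1.34), gave 1.08 (SE 0.54, adjusted p = 0.357) and was not called.

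Of 16 genes that act with TREM2 and TYROBP, 1 was called higher, the sialic acid receptor Cd33 (0.83, SE 0.13, adjusted p = 0.0178), and 0 were called lower, with a median of 0.25. The kinase Syk gave -0.19 (SE 0.16), the related adaptor Hcst 0.38 (SE 0.16) and the phospholipase Plcg2 0.40 (SE 0.09, adjusted p = 0.0602), below the threshold for size although its groups did not overlap. The factor Spi1 (PU.1) was above background on only 1 young and 2 aged arrays, and its 0.12 comes from near background.

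The partner list held 21 measured genes, binding partners and substrates of the members and genes related to these. Of them 1 was called higher, with a median of 0.19 over the list. It was Pros1 (0.56, SE 0.10, adjusted p = 0.0304), a ligand of TYRO3 and MERTK, the relatives of AXL, rather than of a member. The AXL ligand Gas6 gave 0.14 (SE 0.12) and the related receptor Mertk 0.24 (SE 0.12). For Csf1, the receptor Csf1r gave 0.28 by its brightest probe (SE 0.09, adjusted p = 0.149), with separate groups, and as little as 0.01 by another. Csf1r is also counted among the homeostatic markers below. The other ligand of that receptor, Il34, gave 0.19 (SE 0.11). Itgb2, the partner of Itgax, gave 0.68 (SE 0.20, adjusted p = 0.132). The osteopontin receptor Cd44 gave -0.00 (SE 0.12) by its brightest probe and up to 0.81 by another, and cathepsin C, Ctsc, a target of cystatin F, gave 0.20 (SE 0.15). Angptl4, an inhibitor of LPL, gave -0.86 (SE 0.25, adjusted p = 0.138).

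Markers of microglia as a whole were read beside the members. Of 18 homeostatic markers 0 were called by limma in either direction, but 8 had an unadjusted p under 0.05 (17.1% of all genes did), 14 had a positive change and 5 had separate groups, with a median of 0.29. P2ry12 gave 0.36 (SE 0.15), Tmem119 0.37 (SE 0.13) and the fractalkine receptor Cx3cr1 0.30 (SE 0.15). The median over the 18 markers of the deviation of each from its own 8-array mean gave 1 value per array, called the median deviation. It ran from -0.22 to -0.06 over the young arrays and from 0.10 to 0.18 over the aged ones. Of 12 pan-myeloid markers 3 were called higher. These were cathepsin S (Ctss, 0.83, SE 0.12) and the complement genes C1qa (0.86, SE 0.12) and C1qb (0.56, SE 0.13). The pan-myeloid list had a median of 0.48 and median deviations of -0.37 to -0.06 in 3M and 0.03 to 0.30 in 29M. For both lists these median deviations were higher in every aged array than in any young one, but the medians of the levels overlapped between the groups. Replicate 4 of 29M was at 12.26 (homeostatic) and 13.18 (pan-myeloid), below replicate 1 of 3M at 12.59 and 13.33. The part of the myeloid signal in the members' changes was not tested.

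**Figure D4:**
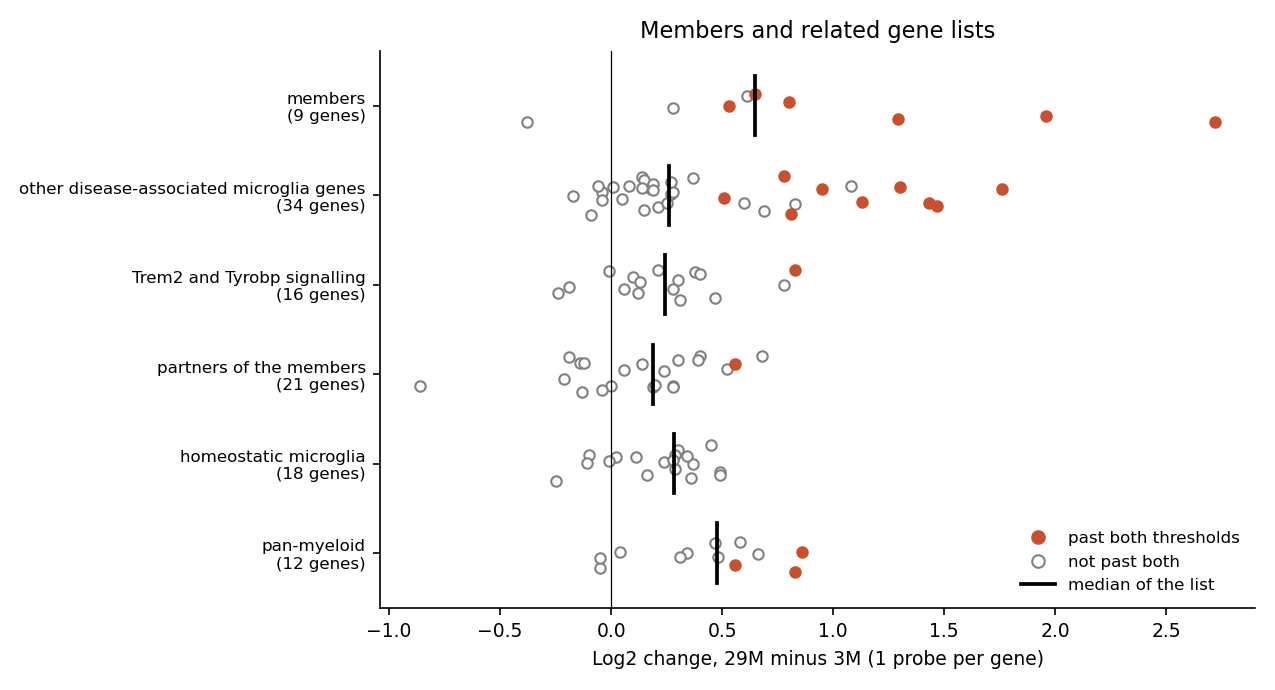
Log2 change from 3M to 29M (horizontal axis) of each gene of the 9 members and of 5 related lists, 1 probe per gene; filled points passed both thresholds, open points did not, and the black bar is the median of the list. The medians are 0.65 for the members, 0.26 for the other disease-associated genes, 0.25 for signalling, 0.19 for partners, 0.29 for homeostatic and 0.48 for pan-myeloid genes, and Cst7, Itgax and Lilrb4a reach farthest right.

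To set the members against markers of the same cells, the median of the 18 homeostatic markers was subtracted on each array. The reference itself had a mean of 12.38 over the young arrays (SD 0.15) and of 12.67 over the aged arrays (SD 0.28), a difference of 0.29. On this relative log2 scale Cst7 was still higher in 29M by 2.44, Itgax by 1.67, Spp1 by 1.01 and Tyrobp by 0.51, each with no overlap between the groups. This held for 4 of the 9 members and for 0.765% of all genes. Before the subtraction the groups were separate, with 29M higher, in 6 of the 9 members and 6.32% of all genes. Subtracting a reference that was higher in 29M itself lowered the share of all genes. Relative to the same markers, Trem2 differed by 0.36, Cd9 by 0.32 and Csf1 by 0.24 with overlapping groups, Axl by -0.01, and Lpl by -0.67, also with overlap. The relative difference of Cd9 was -0.09 without replicate 1 of 3M.

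For Tyrobp the relative values were 0.94, 0.77, 0.76 and 0.68 in 3M and 1.24, 1.38, 1.14 and 1.42 in 29M. Replicate 4 of 29M, its lowest array before, became the highest. For Cst7 the relative values were -5.64, -5.30, -5.96 and -5.68 in 3M and -2.90, -2.79, -3.21 and -3.94 in 29M, and there replicate 4 stayed the lowest. The reference subtracted on that array was 12.26, against 12.71 to 12.86 on the other aged arrays. It is a median over levels of different probes. The median deviations of the same markers were at least 0.10 on every aged array, and members were not set against those. The order of the aged arrays for Tyrobp is therefore given for this reference only. With the 12 pan-myeloid markers as the reference, whose median differed by 0.56 between the groups, the differences were 2.17 for Cst7, 1.40 for Itgax and 0.24 for Tyrobp, the 3 members with separate groups, against 0.36% of all genes. Spp1 then differed by 0.74, Trem2 by 0.09 and Csf1 by -0.03, with overlap. Lpl was lower in every aged array, by 0.94 in the mean (difference -0.94). This subtraction too lowered the share of all genes, from 6.32%.

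**Figure D5:**
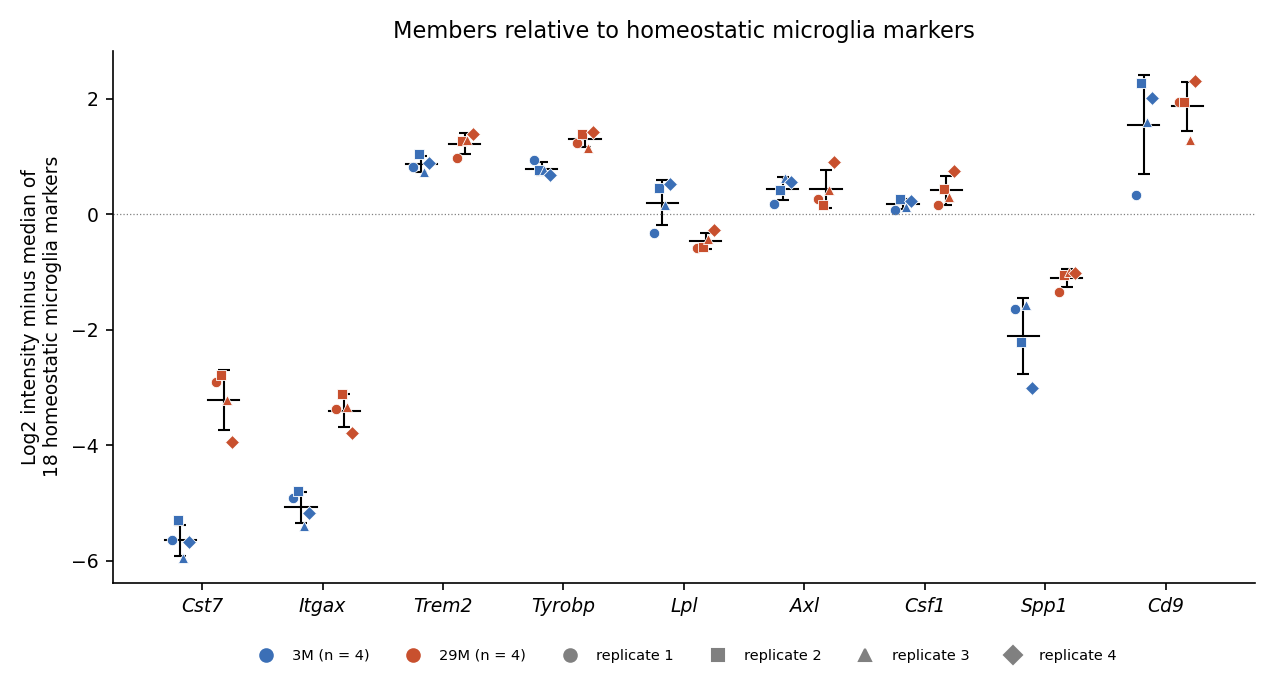
Log2 intensity of each of the 9 genes minus the median of 18 homeostatic microglia markers on the same array (vertical axis), with 3M in blue and 29M in red, point shapes for the replicate number, and mean and SD of 4 arrays in black. Cst7, Itgax, Tyrobp and Spp1 have separate groups, and the groups of the other genes overlap.

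Some members are also made by other cells, and the marker lists of those cells were read beside them. T and NK cell markers had 3 of 9 genes called higher, Cd3d (0.96, SE 0.13), Cd8a (0.71, SE 0.09) and Cd2 (0.66, SE 0.16). The second probes of Cd8a and Cd2 gave -0.17 and 0.20 and were not called. The list had a median of -0.02 and median deviations from -0.10 to 0.01 in 3M and from 0.00 to 0.18 in 29M. All 3 called genes were above background on all arrays, and Klrb1c, a marker of NK cells, on none. Dendritic cell markers, which bear on Itgax, had 2 of 6 called, Cd209a (1.12, SE 0.25) and Batf3 (0.81, SE 0.17), with a median of 0.12. The second Cd209a probe gave 0.32 and was not called, and Xcr1 was below background on all 8 arrays. Border macrophage markers had 1 of 9 called, Cbr2 (0.51, SE 0.10), and a median of 0.36. The second Cbr2 probe gave 0.32 and was not called, and Cd163 was below background on every array. The median deviations ran from -0.21 to -0.04 in 3M and from 0.08 to 0.19 in 29M for dendritic cells. For border macrophages they ran from -0.31 to 0.01 and from 0.00 to 0.45. Of 8 measured monocyte and neutrophil markers 0 were called by limma and 2 had an unadjusted p under 0.05, with a median of 0.43 and ranges of -0.46 to 0.17 and -0.11 to 0.50.

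For Cd9 and Lpl the glial and neuronal lists matter. Oligodendrocyte markers had 0 of 8 called by limma (1 at an unadjusted p under 0.05) with a median of 0.18, precursor markers 1 of 6 called lower (Gpr17, -0.99, SE 0.21) although 5 of the 6 were positive (median 0.18), astrocyte markers 1 of 8 called higher (Gfap, 0.71, SE 0.12) with 5 of 8 positive (median 0.16), and neuronal markers 0 of 8 with a median of -0.02 and 0 at an unadjusted p under 0.05. Endothelial and choroid plexus lists had 0 called, with medians of 0.10 and 0.15 and 2 and 0 genes at an unadjusted p under 0.05. The choroid plexus list was widely spread among the young arrays, with median deviations from -0.91 to 0.41, against -0.20 to 0.20 in 29M. For endothelial cells they ran from -0.12 to 0.03 in 3M and from -0.04 to 0.17 in 29M. The part of these cells in the members' changes was not tested.

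The genes whose levels ran most like the members were sought among 15912 other genes above background on all 8 arrays, by the correlation with the mean of the 9 standardised members. The 5 most alike were the serpin Serpina1c (r = 0.991), Nlrp5 (0.988), the homeobox gene Meox1 (0.984), the vomeronasal receptor gene Vmn1r177 (0.984) and Frmpd1 (0.981). With the group means removed, r was 0.93 for Serpina1c and 0.71 to 0.80 for the other 4, values that the choice of the genes by the same arrays favours. Serpina1c was at 7.59, 7.65, 7.48 and 7.66 in 3M and 9.01, 9.11, 9.17 and 8.51 in 29M, with replicate 4 low as in most members. It rose by 1.35, and Nlrp5, Vmn1r177 and Meox1 rose by 1.01, 0.91 and 0.62, while Frmpd1, with 0.33 and an adjusted p of 0.0602, did not reach the threshold for size. None of the 5 is in the microglial lists, and Serpina1c belongs to a family of near-identical copies that a probe may not tell apart. These correlations rest on 8 arrays that share slides and groups and are given as a description.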

How the data were processed

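RNA of mouse hippocampus was measured on 8 Agilent 1-colour arrays, 4 at 3 months and 4 at 29 months, grouped and numbered by sample title. The authors deposited scanner output per array as linear intensity values, made per the file headers with Feature Extraction 10.7.3.1, not normalized between arrays. The deposited table of the whole series held local background values and was not used. Control spots and outlier spots (127 to 190 per array) were left out. Median spot intensities were normalized by a variance stabilising model written for this purpose in R 4.3.3 (least trimmed squares, quantile 0.9, 7 iterations), which understates changes of dim probes, and replicate spots were averaged. A linear model with age was fitted with limma 3.58.1 (eBayes) to the 39408 probes with at least 3 usable arrays per group, with Benjamini-Hochberg adjustment over all of them. The normalization type, model and thresholds follow the study's methods; the mean intensity those steps were planned on was not used, the median took its place. The steps were tested on simulated data.

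Probes were named through RefSeq (GRCm38.p6) by accession, which named 26055 probes (66.1%). The arrays were designed on another build, so no probe coordinates are given, and those of promoter windows are RefSeq's. For a gene with several probes the one with the highest mean over the arrays stands for it. A probe counted as above background on an array when at least a share of 0.5 of its spots did. The text names all members, at most 8 called genes of each list (all 9 of the other disease-associated genes, 1 of them outside that limit), chosen partners of the members, the 5 genes most alike, and Ccl3, Plcg2, Spi1, Angptl4, Cd163, Xcr1 and Klrb1c, which were chosen after their values were seen. The value of 1 gene of the homeostatic list is not reported here. Members and lists were chosen with earlier results of these data known. Alternatives were other normalizations, filters, blocks, weights, thresholds and leaving out each array.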

Additional observations from a re-analysis of the deposited data

Results flagged for a closer look

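Each group of 4 arrays was examined for 1 array that stood far from the others, in 28 combinations of a member probe or marker median with a group. The measure was the gap to the nearest other array divided by the range of the group, and chance passes about 1 in 20, or 1.4 of 28, where 3 were found. For Itgax, replicate 4 of 29M was the lowest array at 8.48, with the others between 9.49 and 9.60 (gap over range 0.898). For Tyrobp, replicate 1 of 3M was the highest at 13.53, with the others between 13.02 and 13.09 (0.863). The median of the pan-myeloid markers was lowest in replicate 4 of 29M, at 13.18 against 13.53 to 13.60 (0.831).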

How the results depend on the processing

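Cst7 and Itgax stayed called under all 19 alternatives (log2 changes of 2.32 to 3.25 and 1.75 to 2.37), and the main probes of Lpl, Axl and Cd9 were called under none. Spp1 lost its call with 75th percentile scaling (1.26), with the model on processed signals (1.26) and with slide as a fixed block (1.19), where Trem2 lost it too (0.61); the cause was not tested. Same-numbered samples did not consistently deviate together (r = -0.32, 0.29, -0.30 and 0.11, with 0.29 from a pair on the same slide). The labels do not say whether they were paired by design. Under a replicate block Trem2 (0.65) and Csf1 (0.53) lost their calls, and 5 member probes were called. Over all probes, 265 were then called higher and 146 lower, against 489 and 325. When each array was left out in turn, Trem2 ranged from 0.56 to 0.73, Tyrobp from 0.75 to 0.92, Csf1 from 0.47 to 0.57, Spp1 from 1.01 to 1.52 and Cd9 from 0.27 to 0.81, with 3 to 6 member genes and 4 to 8 member probes called. The second Lpl probe turned positive with array weights (0.05) and without replicate 1 of 3M (0.10), its range over left-out arrays being -0.17 to 0.10. Over all probes the calls moved to 341 higher and 222 lower with percentile scaling, 845 and 675 with array weights, and, over left-out arrays, between 259 and 129 (without replicate 2 of 3M) and 844 and 625 (without replicate 1 of 3M), with 264 and 139 without replicate 1 and 281 and 167 without replicate 2 of 29M, and 308 and 217 without replicate 3 of 3M.

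Counts in the related lists rest on few genes. Leaving out each array gave 5 to 13 called for the other disease-associated genes, 1 to 4 for signalling, 0 to 2 for partners (0 to 1 lower), 0 to 1 for homeostatic, 2 to 7 for pan-myeloid, 0 to 3 for border macrophage and 0 to 2 for dendritic cell genes, and 0 to 1 lower for oligodendrocyte precursors. With slide as a fixed block, the counts were 2 for signalling, 2 for partners, 1 for homeostatic, 0 for border macrophages, 1 for monocytes and neutrophils, 1 for dendritic cells and 0 for precursors. The replicate block gave 0 for signalling, partners, border macrophages, dendritic cells and precursors. Array weights gave 2 for signalling, 2 higher and 1 lower for partners, 1 for homeostatic, 7 for pan-myeloid and 4 for border macrophages. Percentile scaling gave 0 for border macrophages and 0 for dendritic cells, normexp with quantile normalization 0 for border macrophages, and the model on processed signals 1 for dendritic cells. At an adjusted p under 0.05 the counts for dendritic cells and precursors were 0. With percentile scaling Cst7, Itgax and Tyrobp relative to the homeostatic markers moved to 2.94, 2.06 and 0.39.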
